A study of Sus scrofa with 12 samples.

Results

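Across a pig microarray, 78 probe sets were followed whose signal in the long back muscle was higher at 60 and at 120 days after birth than at 3 days. They were selected on the measured values themselves, out of 23999 probe sets (0.325%). On the scale log2(value + 21), a member had 60-day and 120-day means each at least 1 above the 3-day mean, and every 60-day and 120-day array above every 3-day array. Its fetal mean was at most 0.5 above the 3-day mean. The rule found 90 probe sets and left out 12 of them by gene symbol. An annotation gave 1 symbol to 35 members, which stand for 31 genes, and several symbols to 1. The other 42 were not listed and are unnamed here.

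RNA came from the longissimus dorsi of Meishan pigs, a Chinese breed. The 4 groups were fetuses at 65 days post coitus (dpc) and pigs at 3, 60 and 120 days after birth, with 3 arrays per stage and 12 in all, and no treatment. All pigs had standard commercial feeding, and fetuses of a single sow counted as 1 individual. The labels call the samples biological replicates and give no sex, litter after birth or feed change, so the p-values measure the spread between these samples.

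Muscle after the first days of life goes over from a diet of milk to solid feed, and its fibres grow in girth. Fast fibres of the back draw on glycogen, which phosphorylase breaks down once phosphorylase kinase has activated it, and AMP deaminase keeps the adenylate balance during hard work. Ketone bodies and branched-chain amino acids are further fuels, and enzymes of redox balance clear reactive by-products. In a whole muscle, RNA also comes from fat cells, nerves, vessels and immune cells.

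Array medians lay between 49.1 and 52.6. The fibre was well represented, with 5 of 5 measured muscle-fibre markers above the array median on every array. As a sign of RNA quality, actin's 3-prime signal was divided by its 5-prime signal, which gave 2.32 to 2.64 before birth, 2.58 to 4.69 at 3 days, 3.85 to 6.18 at 60 days and 4.17 to 5.96 at 120 days. The 3-day range overlapped those of both late stages, though the ratio was mostly higher late. The same ratio for EF1A stayed between 0.907 and 1.14 on all 12 arrays. The part of RNA quality in the members' values was not tested. Fetal replicate 3 stood apart: summed over 35 genes of interferon response and antigen presentation it read 35047, against 6212 and 5819 on the other fetal arrays. Summed over 21 immune cell markers it read 4063, against 900 and 931.

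At 60 days the members stood a median of 1.32 (log2 scale, range 1.01 to 2.99) above 3 days, and at 120 days a median of 1.41 (range 1.01 to 3.81). These differences chose the members and carry no test. All 78 passed the filter on dim probe sets. Their mean intensities at 3 days ran from 3.98 to 2642 with a median of 157, and at 60 days from 45.4 to 4822 with a median of 525. At 3 days 19 of them lay below the median of all probe sets, and at 120 days 0 did. In a bulk muscle sample, fewer cells of a type and less RNA per cell cannot be told apart. At an adjusted p under 0.05 in limma, 41 members were called higher at 60 than at 3 days, where 0.786% of 16166 tested probe sets were, and 60 were called higher at 120 than at 3 days, against 2.29%. The rule used both contrasts, so these counts only describe the members.

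**Figure D1:**
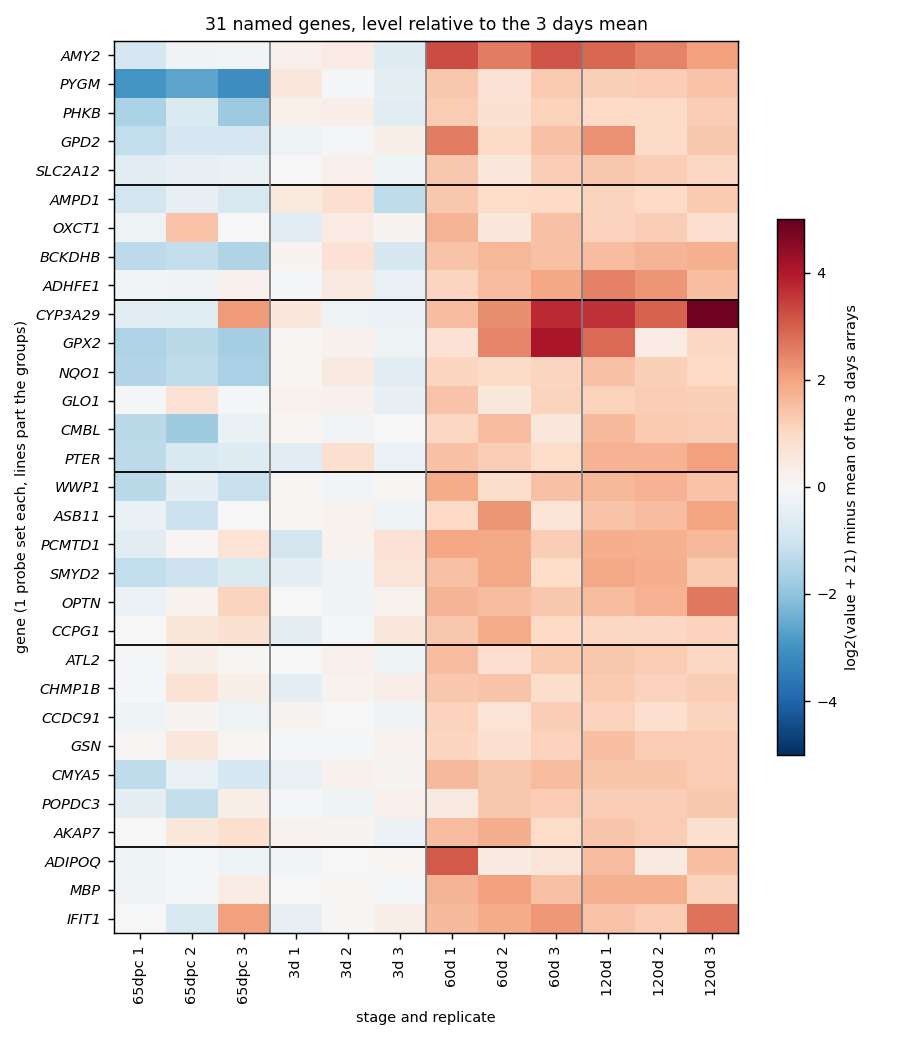
Level of the 31 named genes (rows, 1 probe set each) on the 12 arrays (columns, by stage and replicate), as log2(value + 21) minus the mean of the 3-day arrays, red for higher and blue for lower. All 60-day and 120-day columns are red, as the rule requires, while the fetal columns range from deep blue for PYGM to red for CYP3A29 and IFIT1 on replicate 3.

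The name "rising only after 3 days" did not hold for every member, because the rule caps the fetal mean from above and not from below. For 16 of 78 probe sets the 3-day mean was already at least 1 above the fetal mean, for 13 it was 0.5 to 1 above, and for 49 the stages lay within 0.5 of each other. On 30 probe sets every fetal array was below every 3-day array, on 1 every fetal array was above, and on 47 the arrays overlapped. So the set holds genes with a flat level up to 3 days and genes whose mean was higher at each of these steps. Without fetal replicate 3, 19 members had a 3-day mean at least 1 above the fetal mean.

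**Figure D2:**
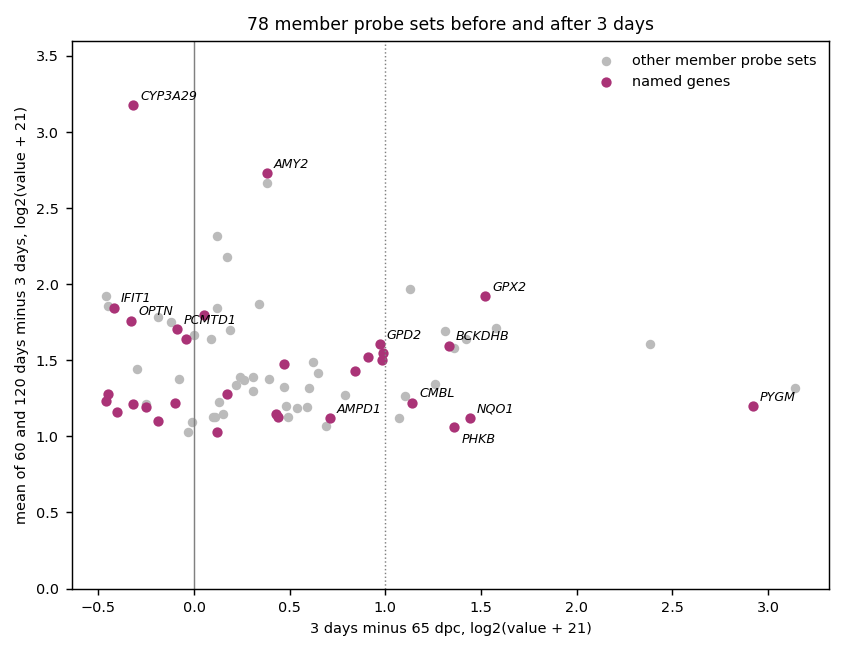
Difference between 3 days and 65 dpc (horizontal) against the mean difference of 60 and 120 days from 3 days (vertical) for 78 member probe sets, both on the log2(value + 21) scale. The dotted line marks 1, and PYGM lies far to its right at 2.92, while AMY2 and CYP3A29 stand highest with little difference between the fetus and 3 days.

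Among genes of glycogen, sugar and glycerol, AMY2, an amylase known from the pancreas that cleaves starch and glycogen, had the largest 60-day difference from 3 days. One of its probe sets read 108, 181 and 184 before birth and 249, 281 and 125 at 3 days. At 60 days it read 2162, 1329 and 2020, and at 120 days 1672, 1264 and 916. The fetal and 3-day arrays overlapped and the later ones lay far above them, with log2 differences from 3 days of 2.99 and 2.47. The second AMY2 member shares its transcript cluster and gave 2.87 and 2.46. Another AMY2 probe set, from another cluster, averaged 1592 before birth, 1677 at day 3, 1831 at day 60 and 1739 at day 120, with differences from 3 days of -0.08 and 0.05. Amylase genes are near-identical copies in mammals, so which copy each probe set reads is uncertain.

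PYGM, the glycogen phosphorylase of muscle, was the named member with the largest difference between the fetus and 3 days. The brighter of its member probe sets read 177, 231 and 160 before birth, 2251, 1474 and 1135 at day 3, 3943, 2555 and 3916 at day 60 and 3580, 3637 and 4230 at day 120. The stages up to 60 days formed 3 separate steps, and the 60-day and 120-day arrays overlapped. Its log2 difference was 2.92 from the fetus to 3 days and 1.12 and 1.28 from 3 days to 60 and 120 days. A dimmer member probe set gave 3.14 for the first of these and 1.23 for the 60-day difference. The remaining pair of PYGM probe sets, brighter still, had differences from 3 days of 0.74 and 0.93 and of 0.68 and 0.83, which is below the threshold of 1. PHKB, the beta subunit of phosphorylase kinase, went the same way at lower size, from 357 ± 160 (SD, n = 3) in the fetus to 933 ± 287, 1917 ± 328 and 1912 ± 213.

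GPD2, the mitochondrial glycerol-3-phosphate dehydrogenase, read 15.5, 25.7 and 25.8 in the fetus and 50.7, 60.9 and 82.1 at 3 days. The 60-day arrays read 482, 144 and 215 and the 120-day arrays 393, 144 and 194. Replicate 1 was the highest at both late stages. Its other 2 probe sets did not keep the later level, with 120-day differences from 3 days of -0.28 and -0.22, and both had 1 high 3-day array, at 305 and at 130. SLC2A12, a glucose transporter, was dim, and read 35.3, 47.5 and 28.2 at 3 days and 127, 60.8 and 115 at 60 days.

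Of 23 measured genes in a list of glycogen and glycolysis 2 were members (8.70%), against 0.552% of all 5612 named genes measured. The list was drawn up with earlier results of these data known. Among its 21 other genes limma called 0 at 60 against 3 days and 1 higher at 120 days, PPP1R1A, an inhibitor of protein phosphatase (adjusted p = 0.0233). Over all other named genes 92 of 5581 were called higher at 120 days. PPP1R1A averaged 1807 at 3 days, 3120 at 60 days and 4830 at 120 days. The other genes' median differences were 0.25 and 0.33, against -0.03 and -0.03 over all other named genes, and 15 of 21 had both late means above the 3-day mean, where 33.6% of all other named genes did.

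**Figure D3:**
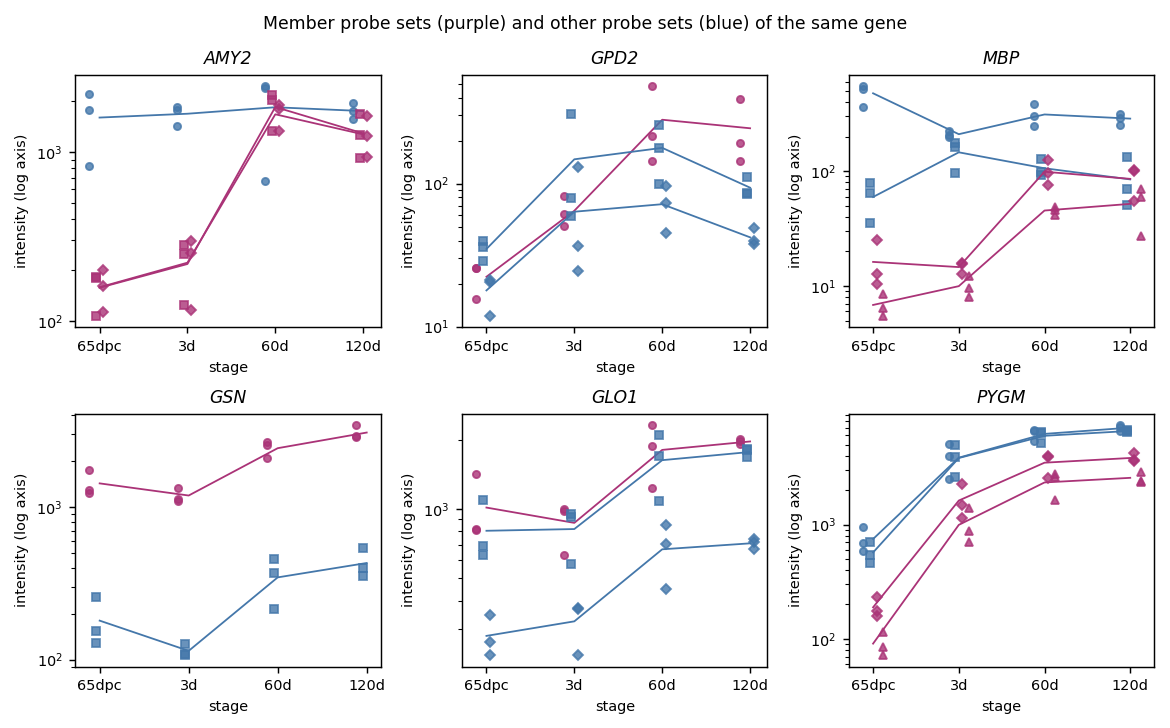
Intensity (vertical, log axis) of every probe set of 6 member genes at the 4 stages, with a point per array and a line through the stage means, purple for member probe sets and blue for the others. The blue lines of GSN, GLO1 and PYGM run along with the purple ones, while those of AMY2 stay level, those of GPD2 fall back at 120 days and those of MBP differ in course.

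Genes of purine, ketone and amino acid use made up the next group. AMPD1, the AMP deaminase of muscle and the brightest member, averaged 1375 ± 271 (SD, n = 3) before birth, 2642 ± 1544 at day 3, 4822 ± 830 at day 60 and 5006 ± 569 at day 120. Its 3-day arrays were uneven, at 3145, 3872 and 910. OXCT1, which activates ketone bodies for oxidation, read 192, 671 and 237 before birth, 150, 321 and 260 at day 3, 813, 343 and 689 at day 60 and 548, 581 and 427 at day 120. Its lowest 60-day array lay just above its highest 3-day array, and it was found again in 8 of 17 reruns of the rule, the fewest of any member. A second OXCT1 probe set had differences of 1.04 and 0.85 from 3 days.

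BCKDHB, a subunit of the branched-chain ketoacid dehydrogenase, read 63.7, 71.9 and 52.5 before birth, 210, 325 and 95.1 at 3 days, 536, 644 and 554 at 60 days and 598, 666 and 701 at 120 days. No 2 neighbouring stages up to 60 days overlapped. ADHFE1, a transhydrogenase of hydroxy acids, was level up to 3 days (43.1 and 46.5) and averaged 173 ± 56.8 and 267 ± 94.7 later. In the list of polyamine and amino acid metabolism AMPD1 and BCKDHB were 2 members among 26 measured genes (7.69%). Of its 24 other genes GAMT, which makes creatine, was called higher at 120 than at 3 days (282 to 1011, limma adjusted p = 0.0236) and 0 were called lower or at 60 days. Over all other named genes 92 of 5581 were called higher at 120 days. The 24 genes' median differences were -0.17 and -0.35.

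Enzymes of redox balance and detoxification gave 6 member genes, with wide spread between arrays in the first pair. CYP3A29, a cytochrome P450 known from liver, where its family oxidises drugs and steroids, had the largest 120-day difference from 3 days. It read 6.96, 5.67 and 155 before birth, 38.3, 13.5 and 11.9 at 3 days, 97.3, 182 and 525 at 60 days and 473, 293 and 1166 at 120 days. Fetal replicate 3 was the array that stood apart. The differences from 3 days were 2.54 and 3.81, and without fetal replicate 3 the 3-day mean lay 0.57 above the fetal mean in place of -0.32. GPX2, a glutathione peroxidase known from the gut, read 14.9, 20.4 and 12.3 before birth, 87.8, 102 and 66.2 at 3 days, 154, 550 and 1752 at 60 days and 732, 118 and 193 at 120 days. It was low on every fetal array, and single arrays carried the high means of both late stages.

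The other 4 enzymes were steadier. NQO1, a quinone reductase, stepped up from 77.0 ± 11.4 (SD, n = 3) in the fetus to 254 ± 89.3, 520 ± 26.1 and 598 ± 98.5. CMBL, a hydrolase, did likewise, with means of 112, 247, 553 and 686. PTER, which resembles bacterial phosphotriesterases, read 77.1, 220 and 94.3 at 3 days, 360, 303 and 243 at 60 days and 451, 442 and 563 at 120 days. GLO1, which clears methylglyoxal, was level between the fetus (1014 ± 349) and 3 days (870 ± 207) and averaged 1805 ± 540 and 1964 ± 52.5 later. Its 2 other probe sets gave 60-day differences of 0.96 and 0.98 and 120-day differences of 1.13 and 1.11. Of 28 measured genes in the list of NADPH supply, redox and detoxification NQO1 was the 1 member (3.57%). GPX2, GLO1, CYP3A29, CMBL and PTER were not on that list. Among the 27 others ALDH2, the mitochondrial aldehyde dehydrogenase, was called higher at 120 than at 3 days (limma adjusted p = 0.0458, 1448 to 3054). Over all other named genes 92 of 5581 were called higher at 120 days. The 27 genes' median differences were 0.13 and -0.03, and 10 (37.0%) had both late means above the 3-day mean. That share was 33.6% over all other named genes.

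Genes of protein modification and turnover came to 6. PCMTD1, related to the methyltransferase that repairs aged proteins, read 353, 565 and 861 before birth, 270, 593 and 879 at day 3, 2052, 2013 and 1272 at day 60 and 1876, 1820 and 1630 at day 120. The first pair of stages overlapped fully and the late stages lay above both. SMYD2, a lysine methyltransferase, and WWP1, a ubiquitin ligase, were above the fetal arrays on every 3-day array, with differences of 0.99 and 0.98 from the fetus, and averaged 1001 ± 210 and 475 ± 53.7 (SD, n = 3) at 120 days. ASB11, a substrate adaptor of a ubiquitin ligase, averaged 310 at 3 days, and its 60-day arrays spread over 635, 1500 and 510. OPTN and CCPG1, both receptors of selective autophagy, had fetal means above their 3-day means (332 against 238 and 497 against 363). For OPTN this rested on fetal replicate 3. Without that array the difference of 3 days from the fetus was 0.06 in place of -0.33 for OPTN. For CCPG1 it was -0.32 in place of -0.46. OPTN reached 728 ± 85.9 and 1062 ± 452, and CCPG1 983 ± 308 and 749 ± 43.1. In the list of protein breakdown and autophagy, 0 of 19 measured genes were members, where 0.552% of all named genes measured were. The list's median differences from 3 days were 0.46 and 0.17, limma called 0 of the 19 higher at either stage, and TP53INP2, an autophagy regulator, was called lower at both (adjusted p = 0.0423 and 0.0197). The share of all tested probe sets called lower was 0.742% at 60 days and 2.12% at 120 days.

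The largest group of named members, 7 genes, serves membranes, traffic and the cytoskeleton. GSN, gelsolin, which severs actin filaments, read 1245, 1763 and 1287 before birth, 1136, 1099 and 1341 at day 3, 2541, 2102 and 2669 at day 60 and 3443, 2892 and 2928 at day 120. Each late stage lay above the one before it. A second, dimmer GSN probe set that was not a member for its fetal level gave 1.39 and 1.72. CMYA5, myospryn, a protein of the costamere that links fibres to their membrane, averaged 522 ± 172, 935 ± 194, 2674 ± 252 and 2382 ± 96.8 in stage order. POPDC3, a membrane protein that binds cyclic AMP, averaged 581, 724, 1541 and 1761, and a second POPDC3 probe set gave 0.80 and 1.10.

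ATL2, an atlastin that shapes the endoplasmic reticulum, was level between the fetus and 3 days. It read 558, 758 and 620 before birth, 600, 705 and 496 at day 3, 1759, 1086 and 1493 at day 60 and 1540, 1443 and 1255 at day 120. CHMP1B, part of the machinery that cuts membranes, averaged 375, 299, 702 and 706, and its other probe set, with 1.16 and 1.08, missed the rule by its fetal level (-0.56 from the fetus to 3 days). AKAP7, which anchors protein kinase A, averaged 83.6 ± 26.9 before birth, 54.5 ± 12.6 at 3 days and 185 ± 60.2 at 60 days. CCDC91, of Golgi traffic, lay just inside the threshold with 1.02 and 1.04, as did GSN with 1.02 at 60 days. Just outside were DYNC2LI1 and MX1, whose smaller differences were 0.999 and 0.996.

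The last 3 named members are known from fat cells, myelin and the interferon response. ADIPOQ, adiponectin, the hormone of fat cells, read 8.49, 11.5 and 7.14 before birth, 10.0, 13.2 and 15.5 at 3 days, 263, 25.4 and 32.2 at 60 days and 78.6, 25.1 and 75.1 at 120 days. Most of its 60-day mean came from replicate 1, and 2 of 3 arrays there lay below the array median. The 4 other fat cell markers on the array summed to 1258 to 1720 at 3 days, 1416 to 1979 at 60 days and 1361 to 2117 at 120 days, so their ranges overlapped. FABP4, a fatty acid carrier of the same list, read 922, 1194 and 379 at 3 days and 1096, 985 and 1158 at 60 days, and these overlapped. In the wider list of adipocyte and lipid synthesis ADIPOQ was the 1 member of 21 measured genes (4.76%). Of the 20 others limma called CIDEA, a lipid droplet protein, higher at 120 than at 3 days (adjusted p = 0.0226). Over all other named genes 92 of 5581 were called higher at 120 days. The 20 genes' median differences were 0.04 and 0.03.

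MBP, myelin basic protein, had 2 dim members. The brighter read 15.4, 15.8 and 12.7 at 3 days, 95.7, 125 and 76.0 at 60 days and 102, 99.5 and 55.3 at 120 days. The late arrays lay above the fetal ones too, which read 10.4 to 25.3. The brightest MBP probe set was not a member. It averaged 477 before birth, 210 at day 3, 312 at day 60 and 287 at day 120. The remaining one went the other way after 3 days, from 146 to 106 and 84.8. The 6 other nerve and Schwann cell markers on the array summed to 520 to 551 at 3 days, 445 to 564 at 60 days and 552 to 657 at 120 days, and they did not move as one. Of these 6 limma called 1 lower at 60 than at 3 days, 1 lower at 120 days and 0 higher. The shares of all tested probe sets called lower were 0.742% and 2.12%. Only 1 of the 6 had both late means above the 3-day mean. MPZL1 averaged 166, 102 and 92.0 at 3, 60 and 120 days, and NEFL 60.9, 36.0 and 44.4. SOX10, a defining factor of Schwann cells, averaged 53.3, 39.7 and 45.7 at these stages, close to or under the array median. S100B, a calcium-binding protein of glia, read 94.8, 137 and 196 at 3 days, 213, 276 and 160 at 60 days and 341, 256 and 260 at 120 days. Its 120-day arrays lay above its 3-day arrays, and limma's adjusted p for that difference was 0.0925. Their part in the MBP values was not tested.

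IFIT1, an antiviral protein induced by interferon, had 2 members from 1 transcript cluster. The brighter read 53.7, 23.7 and 291 before birth, 36.0, 58.2 and 75.2 at 3 days, 215, 256 and 318 at 60 days and 181, 164 and 475 at 120 days. Replicate 3 was the highest array at every stage, although the labels tie no animal to a replicate number. Without fetal replicate 3 its 3-day mean lay 0.39 above the fetal mean in place of -0.42. Another IFIT1 probe set from that cluster averaged 87.3, 98.6, 125 and 145, with 0.28 and 0.45 from 3 days. OAS1 and RSAD2, also induced by interferon, could not be members, because the rule left out their symbols. IFIT1 was the 1 member among 35 measured genes of interferon response and antigen presentation (2.86%). Of the 34 others 27 had both late means above the 3-day mean (79.4%, against 33.6% of all other named genes), with median differences of 0.77 and 1.01. None of the 34 passed limma's test at 60 or 120 against 3 days. ISG15 spread widely within the late stages, at 43.4, 233 and 515 at 60 days and 270, 258 and 1406 at 120 days. Limma's fit shares its estimate of spread over all stages, so fetal replicate 3 enters it as well. IFI44L read 72.1, 90.9 and 119 at 3 days, 448, 530 and 473 at 60 days and 491, 457 and 840 at 120 days. Its fetal arrays read 102, 125 and 1106. How far either spread kept genes from being called was not tested.

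**Figure D4:**
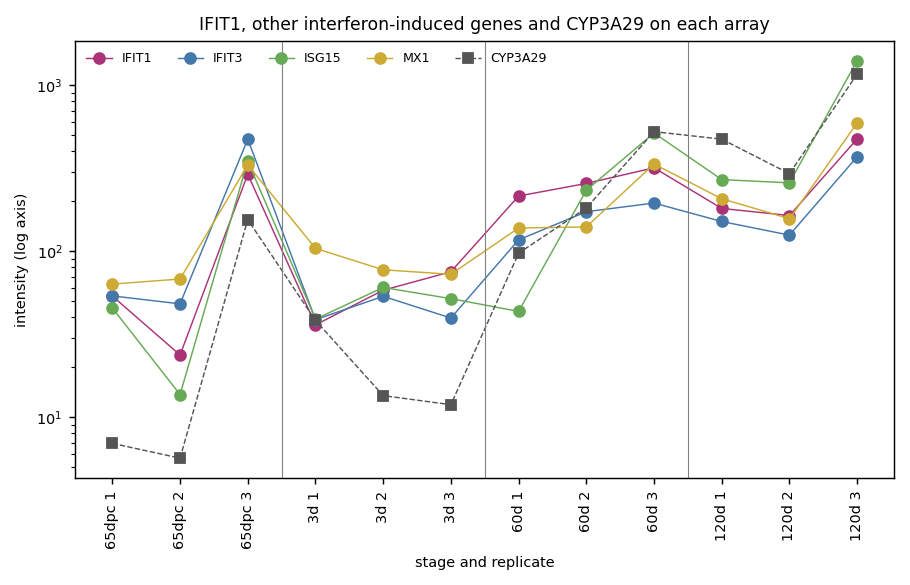
Intensity (vertical, log axis) of IFIT1, 3 other interferon-induced genes and CYP3A29 on each of the 12 arrays. Replicate 3 is the highest array of the fetal and of the 120-day stage for all 5 genes, with IFIT1 at 291 and 475.

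Between 60 and 120 days no member was called. The rule set no condition on this difference, but it required both stages to be high, which limits how far they can differ in a member. The members' values here are therefore no independent test and only describe them. Limma called 0 of 78 members and 0 of 16166 probe sets in either direction (0.0% higher and 0.0% lower). At an unadjusted p under 0.05 there were 1 member and 1021 probe sets. The smallest adjusted p among members was 0.616. It belonged to an unnamed probe set that read 136, 73.6 and 173 at 60 days and 272, 274 and 275 at 120 days, a log2 difference of 1.05 ± 0.24 (SE). The 120-day mean was the higher one for 52 members and the lower one for 26, and the median difference was 0.09, against -0.007 over all probe sets tested.

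A missed threshold does not show equal levels, so the intervals are given. The 95% interval of the difference lay within 1 log2 unit of 0 for 52 members and reached past it for 26. Its width uses an estimate of spread shared by all stages, so uneven fetal or 3-day arrays widen it too. The interval was narrow for CCDC91 (0.03, from -0.37 to 0.43) and ATL2 (-0.01, from -0.50 to 0.48), while CYP3A29 (1.27, from -0.33 to 2.87) and GPX2 (-0.99, from -2.54 to 0.55) were wide. All 120-day arrays lay above all 60-day arrays for 4 members, among them PTER (0.66 ± 0.31) and GSN (0.34 ± 0.19), and the reverse held for 0. Over all probe sets tested these shares were 6.33% and 7.52%. The spread within a stage was larger for members than in general: the median SD on the log2 scale was 0.39 at 60 days and 0.22 at 120 days, against 0.23 and 0.14 over all probe sets tested.

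**Figure D5:**
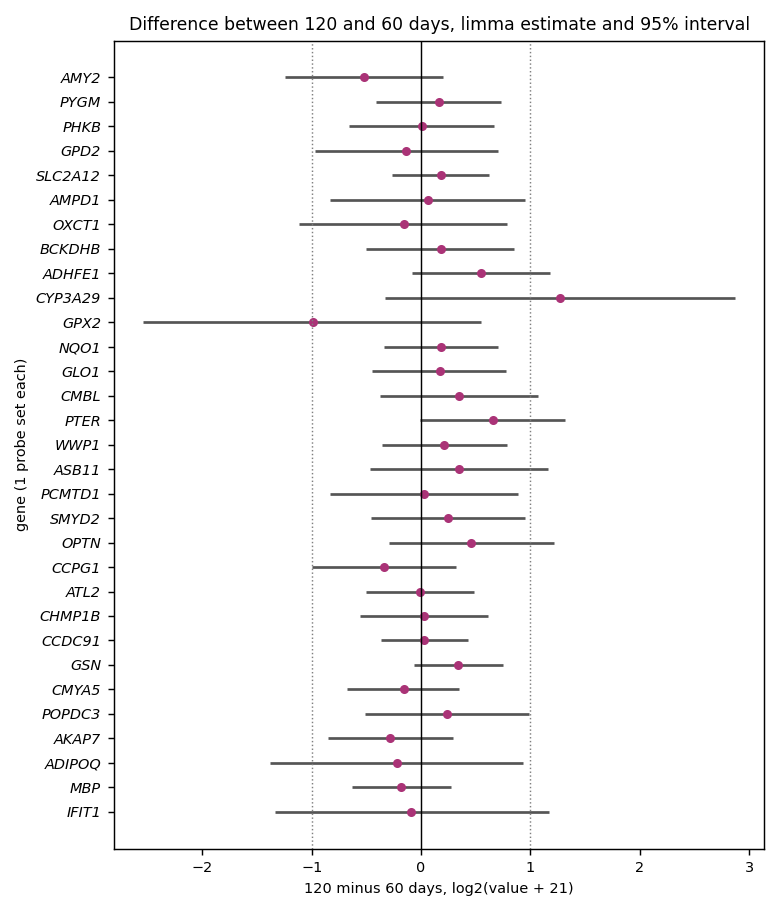
Difference between 120 and 60 days (horizontal, log2(value + 21)) for the 31 named genes, with limma's estimate as a point and its 95% interval as a line. Dotted lines mark -1 and 1, and the interval of every gene drawn includes 0.

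The 42 unnamed members had differences from 3 days with medians of 1.27 at 60 days and 1.43 at 120 days, and 8 of them were at least 1 higher at 3 days than in the fetus. Their 60-day means ran from 58.2 to 2907. The largest of them by its smaller difference was a probe set that lay between 7.74 and 11.1 at 3 days and read 382, 42.2 and 53.2 at 60 days and 209, 114 and 109 at 120 days. The 60-day array that carried it, replicate 1, also had the highest reading of ADIPOQ and GPD2 at that stage. The probe set with several symbols read 26.4, 15.9 and 1595 before birth, so its fetal mean rested on replicate 3. Without that array its 3-day mean lay 2.89 above the fetal mean, in place of 1.13.

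The 78 probe sets came from 73 transcript clusters, and 4 genes had 2 members each, so members are not all separate transcripts. The 11 member genes with further probe sets had 15 that were not members. Of these 11 had both late means above the 3-day mean and 1 had both below. Of 21 gene lists 15 held no member, among them fast-fibre contractile genes (0 of 10 measured), extracellular matrix (0 of 33) and endothelial cells and pericytes (0 of 16). Over all named genes measured 0.552% were members, and at that share most lists this short would hold 0. Of the 31 named genes 23 were in no list. The 21 measured genes of fatty acid oxidation held no member either, and their medians lay at -0.34 and -0.50. At 60 against 3 days limma called 1 of them higher, UCP3, a mitochondrial uncoupling protein (adjusted p = 0.0138), and 1 lower, CPT1B, the muscle carnitine palmitoyltransferase (adjusted p = 0.0167), where 0.786% and 0.742% of all tested probe sets were called. At 120 days 0 were called higher and 5 lower, CPT1B among them (adjusted p = 0.00145), against 2.29% and 2.12% of all tested probe sets. Counted by gene, as the lists are, 29 of 5581 other named genes were called higher and 44 lower at 60 days. At 120 days these counts were 92 and 156.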

How the data were processed

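The authors deposited linear intensities of an Affymetrix porcine array, with 1 value for each probe set and sample. Per the submitters' processing notes GCOS 1.4 was used. How probes were summarised and scaled is not given in the sources used here. Of 24123 probe sets 124 were controls. Values were used as log2(value + 21), without further normalization. A pseudocount of this size understates changes of dim probe sets. Tests covered the 16166 probe sets that exceeded the 40th percentile of an array on at least 3 arrays.

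The rule's 12 symbols were MSS51, FMO1, ALDH1A1, OCA2, C4BPA, ME1, BPGM, FBP2, CAPN3, CAMK2G, OAS1 and RSAD2, of which 9 were found. Genes with these symbols could not be members, whatever group or list they belong to. Members and lists were chosen with earlier results of these data known. Symbols came from a 2016 annotation. Through Entrez identifiers 34 of 35 member probe sets were found in RefSeq's gene table, and 0 symbols changed. List genes stand by their brightest tested probe set.

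All 12 arrays entered 1 limma fit with a mean per stage and a variance trend (8 residual and 4.26 prior degrees of freedom), with two-sided tests and Benjamini-Hochberg adjustment over 16166. In a simulation of 120 against 60 days over 16166 probe sets, 63 of 100 changes of 1 and 97 of 100 changes of 2 log2 units were recovered, with 6 false calls. Members spread more within a stage than probe sets in general, so these shares need not hold for them. Genes were named by size of rise, list, course before 3 days, nearness to the threshold and number of probe sets. This rule named 28 genes, while CMBL, SLC2A12 and POPDC3 fall outside it and were chosen once values were known, as were the role groups. No promoter or protein sequences were analysed here. Precision is limited by having 3 arrays per stage. The fits used limma 3.58.1 in R 4.3.3, and summaries and plots Python 3.11.15 with pandas 2.3.3, NumPy 2.4.6 and matplotlib 3.10.9.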

Additional observations from a re-analysis of the deposited data

How the results depend on the processing

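The rule found 127 members with a pseudocount of 1 and 48 after centring each array on its hybridization controls, in place of 78. In that centring the median of all probe sets tested lay at -0.10 and -0.16 for 60 and 120 against 3 days, and at -0.28 for 3 days against the fetus. All 78 members still had both late means above the 3-day mean, and 75 had no overlap of arrays. The number at least 1 higher at 3 days than in the fetus was then 11 in place of 16. The number with a fetal mean above the 3-day mean was then 37 in place of 22. A pseudocount of 51 gave 55 members, quantile normalization 70 and median centring 81. Leaving out 1 array gave 71 to 111 members, and 63 to 77 of the 78 were found again. In all 17 of these reruns 30 of the 78 were found, 11 of them with 1 symbol.

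The count of probe sets called between 120 and 60 days was 0 as reported, 1 without a filter, 1 with a single probe set per gene, and 0 to 5 with 1 array left out, where 5 came without 60 days replicate 3. The count of called members was 0 in every alternative run, and 0 of 772 refits of the named genes' late difference were called. The members' median late difference ran from 0.01 to 0.13 with 1 array left out. With the replicate number as a replicate block limma called 0 probe sets, with 906 at an unadjusted p under 0.05. Same-numbered arrays deviated together with r from -0.424 to 0.297, above 0.1 in 8 of 18 pairs. Of 12 arrays 3 correlated best with their own number. The largest r of all pairs, 0.646, joined different numbers, fetal replicate 2 and 60 days replicate 1. The labels give no more than the number, and whether same-numbered samples are related cannot be told from this check. Leaving out fetal replicate 3 for the fetal means, and counting members under the centring on controls, were chosen after seeing the data. Means that rest on dim probe sets, such as those of MBP, ADIPOQ, SLC2A12 and CYP3A29 at 3 days, have little signal over background. CYP3A29 averaged 21.2 at 3 days. The rule found it again in 13 of 17 reruns, though not after centring on the hybridization controls. The promoter motif search was not run.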
